A study of Bos taurus with 8 samples.

Results

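Imprinted genes are expressed mainly from the copy inherited from 1 parent, and DNA methylation laid down in the egg or the sperm marks which copy stays silent. Those marks have to survive the wave of demethylation in the cleaving embryo. In a cloned embryo both parental copies arrive together in a donor nucleus rather than in an egg and a sperm. The genes described here are SNRPN, NDN, COPG2, PLAGL1, IGF2R and PEG3. They were taken by symbol from a list of 6 names, and 5 of the 6 matched 1 row each among 21258 features. PEG3 was not analysed under its symbol.

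RNA was measured in pools of 8 Holstein cattle embryos at the 8-cell stage. There were 2 libraries of embryos cloned by somatic cell nuclear transfer (SCNT) with overexpression of KDM4E (here KDM4E-SCNT), a demethylase that removes repressive methyl marks from histone H3. There were 3 libraries of embryos made by in vitro fertilisation (IVF) and 3 of SCNT embryos without KDM4E overexpression, which the series names as the control. All of the groups were embryos produced outside the animal. The labels give neither the donor cells nor the way KDM4E was supplied, and do not tell if pools sharing a group were made on separate days, so the p-values describe the spread among these pools only, part of which could be technical.

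Values are FPKM, fragment counts scaled for transcript length and for the total of the library. FPKM adds up both parental copies, so it gives the amount of RNA and not which copy made it. Genes are called imprinted here because they were listed as such. Whether each is imprinted in cattle embryos of this stage was not measured. In a pool, fewer cells with the transcript and less transcript per cell cannot be told apart. Differences are between group means of log2(FPKM + 1), each with its standard error (SE), which understates the change of genes at low FPKM. They were tested with limma across 14839 features that reached 1 FPKM in at least 2 libraries, and genes with an adjusted p under 0.05 are called. Of the 5 genes, all 5 passed that filter. IGF2R reached 1 FPKM only in SCNT libraries and NDN only in cloned libraries. Both thus passed only through groups where they were high, and their differences from IVF are tied to that selection.

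Between 10975 and 13050 features reached 1 FPKM in a library, and libraries of 1 group had a Spearman correlation of 0.885 to 0.931 across features. KDM4E was not analysed under its symbol. A row described as a lysine demethylase of the same family, LOC524768, had 102 and 206 FPKM in KDM4E-SCNT, 88.3 to 109 FPKM in IVF and 25.4 to 33.9 FPKM in SCNT, but whether it is KDM4E is not known from the files. All 12 of 12 markers of oocytes and cleaving embryos were higher in KDM4E-SCNT than in SCNT (21.6% of all features were) and in IVF than in SCNT (34.9% of all features were), and 1, H1FOO, was lower in KDM4E-SCNT than in IVF (0.620% of all features were). Their summed level was 29388 and 35206 FPKM in KDM4E-SCNT, 37780 to 49573 FPKM in IVF and 5655 to 13534 FPKM in SCNT. Mitochondrial genes made up 11.0% and 11.5% of summed FPKM in KDM4E-SCNT, 6.08% to 7.10% in IVF and 7.54% to 10.6% in SCNT.

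The genes fell into 3 patterns. SNRPN and NDN, both on chromosome 21, were low in IVF embryos and higher in both kinds of cloned embryo. SNRPN was called lower in KDM4E-SCNT than in SCNT, and NDN was not called there. COPG2 and PLAGL1 were higher in IVF than in SCNT, and for both KDM4E-SCNT replicate 2 lay within the IVF range. Replicate 1 was below the lowest IVF library, with 22.88 against 35.16 FPKM for COPG2 and 6.63 against 6.72 FPKM for PLAGL1. IGF2R was under 1 FPKM in KDM4E-SCNT and IVF and above 1 FPKM in every SCNT library. Of the 5 genes, 2 were called higher and 3 lower in IVF than in SCNT, where 58.5% of all features tested were called (34.9% higher and 23.6% lower). In KDM4E-SCNT against SCNT 1 was higher and 1 lower, against a background of 32.6% of features called (21.6% higher and 11.0% lower). Between KDM4E-SCNT and IVF 2 were higher and none was lower, at an adjusted or an unadjusted p under 0.05, where 6.52% of features were called (5.90% higher and 0.620% lower).

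**Figure D1:**
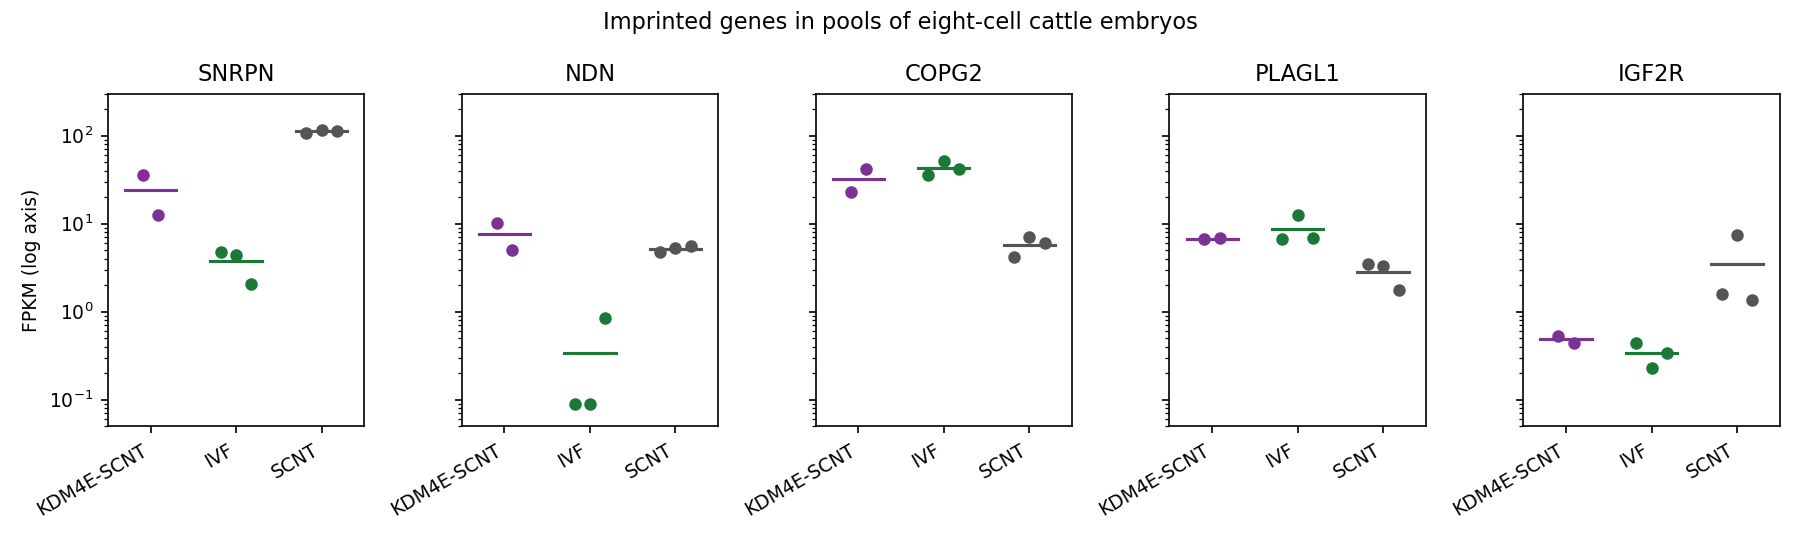
FPKM on a log axis of each of the 5 imprinted genes in every library, by group; points are libraries (2 KDM4E-SCNT, 3 IVF, 3 SCNT) and bars are group means. SNRPN stands at 12.4 and 35.9 FPKM in KDM4E-SCNT, between the IVF and the SCNT libraries, whereas NDN in KDM4E-SCNT overlaps SCNT, and COPG2 and PLAGL1 in KDM4E-SCNT overlap IVF.

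SNRPN encodes SmN, a core protein of the spliceosomal small nuclear ribonucleoproteins, and is expressed from the paternal copy in humans and mice. The gene lies at chromosome 21, 2566 to 25936 (UMD3.1), where the files give it 3 transcripts. It had 35.87 and 12.43 FPKM in KDM4E-SCNT, 4.70, 4.38 and 2.07 FPKM in IVF, and 105.61, 115.14 and 113.64 FPKM in SCNT. No library of 1 group overlapped another group. The SCNT libraries were close together, whereas the KDM4E-SCNT libraries differed from each other more than the SCNT libraries did. This pattern was widely shared. Over the 8 libraries 634 features with a symbol had a Pearson correlation of 0.95 or more with SNRPN, the closest being MRPS18C and AK6, at 0.997 and 0.996.

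SNRPN was 4.63 ± 0.39 log2 units lower in IVF than in SCNT (SE, n = 3 each; limma adjusted p = 2.28e-06). On the same scale it was lower by 2.34 ± 0.44 in KDM4E-SCNT than in SCNT (limma adjusted p = 0.00249). It remained 2.29 ± 0.44 higher in KDM4E-SCNT than in IVF (limma adjusted p = 0.00646). The difference between KDM4E-SCNT and SCNT was thus about as large as the one that separated KDM4E-SCNT from IVF. Without KDM4E-SCNT replicate 1 the difference from IVF was 1.56 and was no longer called (limma adjusted p = 0.125). Among the features tested, the mean level of SNRPN stood at the 77.3 percentile in KDM4E-SCNT, the 43.4 percentile in IVF and the 92.9 percentile in SCNT.

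SNRPB encodes SmB, the closely related protein that takes the same place in the ring of Sm proteins. Reads from stretches the paralogues share could have been divided between them, so the level of each is uncertain to that extent. SNRPB had 297 and 146 FPKM in KDM4E-SCNT, 67.5, 26.4 and 111 FPKM in IVF, and 697, 253 and 397 FPKM in SCNT. It was lower in IVF than in SCNT by 2.80 ± 0.50 (limma adjusted p = 0.000419), in the same direction as SNRPN. SNRPN made up 10.8% and 7.83% of the SNRPN and SNRPB sum in KDM4E-SCNT, 6.51%, 14.2% and 1.82% in IVF, and 13.2%, 31.2% and 22.2% in SCNT. The shares of IVF and SCNT overlapped (exact permutation test, two-sided, p = 0.2; the smallest p for 3 against 3 is 0.1).

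Of 15 other Sm and snRNP assembly genes tested, 1 was higher and 8 were lower in IVF than in SCNT. The 60.0% called is close to the 58.5% of all features, of which 34.9% were higher and 23.6% lower. The genes called lower were SNRPB, SNRPB2, SNRPA, SNRPA1, SNRPC, SNRNP70, GEMIN6 and GEMIN7, which encode snRNP proteins and parts of the complex that loads Sm rings onto RNA. GEMIN7 had 21.5 and 4.83 FPKM in KDM4E-SCNT, 0.43, 1.35 and 2.92 FPKM in IVF, and 54.5, 19.2 and 49.7 FPKM in SCNT. GEMIN2, a subunit of the same complex, went the other way and was 1.91 ± 0.30 higher in IVF than in SCNT (limma adjusted p = 0.000155). The median difference of the 15 genes was -1.03 in IVF against SCNT, where the median over all features was 0.39. After quantile normalization 3 were higher and 5 lower, and after median-ratio scaling 1 and 11.

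Of these 15 genes 2 were called between KDM4E-SCNT and SCNT, GEMIN2 higher and GEMIN7 lower, which is 13.3% against 32.6% of all features, and the split was 3 and 1 after quantile normalization and 1 and 3 after median-ratio scaling. Against IVF, GEMIN6 and GEMIN7 were higher in KDM4E-SCNT and none was lower, where 5.90% of all features were higher. GEMIN6 had 45.4 and 40.7 FPKM in KDM4E-SCNT, 6.93, 17.4 and 9.22 FPKM in IVF, and 44.2, 66.2 and 63.4 FPKM in SCNT. Its difference between KDM4E-SCNT and IVF was 1.95 ± 0.39 (limma adjusted p = 0.00804), and without KDM4E-SCNT replicate 1 it was 1.87 (limma adjusted p = 0.0973). GEMIN7 also lost its calls on the KDM4E-SCNT comparisons when single libraries were left out.

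NDN encodes necdin, a MAGE family protein that restrains the cell cycle in neurons and is paternally expressed in humans and mice. It is a gene with 1 transcript at chromosome 21, 736183 to 737792 (UMD3.1). NDN had 10.13 and 5.01 FPKM in KDM4E-SCNT, 0.09, 0.09 and 0.84 FPKM in IVF, and 4.70, 5.27 and 5.50 FPKM in SCNT. Every IVF library was under 1 FPKM and every cloned library was above 4 FPKM. KDM4E-SCNT replicate 1 was above the SCNT range and replicate 2 inside it.

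NDN was 2.24 ± 0.37 lower in IVF than in SCNT (limma adjusted p = 0.000255). It was 2.66 ± 0.42 higher in KDM4E-SCNT than in IVF (limma adjusted p = 0.00206). With a pseudocount of 0.1 these differences were -4.02 and 4.48, and both calls held. Between KDM4E-SCNT and SCNT the difference was 0.41 ± 0.42, with a 95% interval of -0.49 to 1.31 (limma adjusted p = 0.463). That interval leaves room for a difference of about 1 log2 unit in favour of KDM4E-SCNT, and without KDM4E-SCNT replicate 1 the estimate was -0.033. It was 0.017 after median-ratio scaling and 0.049 after quantile normalization. The interval does not include a fall as large as the one SNRPN had in the same libraries.

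MAGEH1, another MAGE family gene, had the highest Pearson correlation with NDN of all features with a symbol, 0.984 over the 8 libraries, followed by TMUB2 at 0.974, and 11 features reached 0.95. The points share their libraries and their groups, so the value is a description. MAGEH1 had 11.9 and 6.84 FPKM in KDM4E-SCNT, was listed at 0 and had 0.30 and 2.09 FPKM in IVF, and had 7.03, 7.91 and 8.63 FPKM in SCNT. It was 2.66 ± 0.48 higher in KDM4E-SCNT than in IVF (limma adjusted p = 0.00458) and 2.47 ± 0.43 lower in IVF than in SCNT (limma adjusted p = 0.000353). Without KDM4E-SCNT replicate 1 the first of these was 2.30 (limma adjusted p = 0.0893).

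MAGED1, which encodes a further MAGE protein known to work in neurotrophin receptor signalling and apoptosis, was called in all 3 comparisons. It had 6.48 and 3.68 FPKM in KDM4E-SCNT, was listed at 0 and had 0.20 and 0.19 FPKM in IVF, and had 12.8, 13.8 and 11.5 FPKM in SCNT. It was lower in KDM4E-SCNT than in SCNT by 1.20 ± 0.37 (limma adjusted p = 0.0262) and higher in KDM4E-SCNT than in IVF by 2.39 ± 0.37 (limma adjusted p = 0.00196). Its difference between KDM4E-SCNT and SCNT lost the call without KDM4E-SCNT replicate 2 and without each SCNT replicate, at adjusted p values up to 0.205.

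Of the 13 tested genes of the MAGE family and necdin's partners, 3 were higher and 4 lower in IVF than in SCNT, 53.8% called against 58.5% of all features. The 4 lower genes were MAGED1, MAGEH1, TRIM27, a ubiquitin ligase that binds MAGE proteins, and BMI1, a Polycomb repressor. The higher genes included NSMCE1 and NSMCE4A, subunits of the SMC5/6 complex. NSMCE4A had 258 and 347 FPKM in KDM4E-SCNT, 311, 472 and 345 FPKM in IVF, and 55.6, 106 and 69.6 FPKM in SCNT. Between KDM4E-SCNT and SCNT 2 were higher and 2 lower, 30.8% called against 32.6% of all features. Between KDM4E-SCNT and IVF MAGED1, MAGEH1 and TRIM27 were higher and none was lower, where 5.90% of all features were higher. The call of TRIM27 (1.99 ± 0.49, limma adjusted p = 0.0293) held in 8 of 15 alternatives, and without KDM4E-SCNT replicate 1 its difference was 1.15 (limma adjusted p = 0.416).

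UBE3A, a ubiquitin ligase gene that lies in the same imprinted domain as SNRPN and NDN in humans and is maternally expressed in neurons there, was also on chromosome 21. It had 23.7 and 10.8 FPKM in KDM4E-SCNT, 3.52, 4.19 and 6.03 FPKM in IVF, and 28.3, 27.6 and 36.5 FPKM in SCNT. UBE3A was 2.52 ± 0.35 lower in IVF than in SCNT (limma adjusted p = 7.10e-05) and 1.64 ± 0.39 higher in KDM4E-SCNT than in IVF (limma adjusted p = 0.0243). All 3 tested imprinted genes of chromosome 21 were therefore called lower in IVF than in SCNT, where 23.6% of all features were lower. All 3 were called higher in KDM4E-SCNT than in IVF, where 5.90% of all features were higher. Both comparisons use the same IVF libraries. These 3 were all of the imprinted genes called between KDM4E-SCNT and IVF. The directions are not particular to chromosome 21, as MAGED1, MAGEH1, TRIM27, GEMIN6 and GEMIN7, on other chromosomes, were called the same way in both comparisons. Without KDM4E-SCNT replicate 1, UBE3A had 1.10 (limma adjusted p = 0.343), and its call was also lost without IVF replicate 1 or 2. ATP10A and RTL1, imprinted genes on the same chromosome, did not pass the filter.

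Fibroblast markers, a list for another cell type, went in both directions in IVF and in KDM4E-SCNT against SCNT. Their summed level was 105 and 401 FPKM in KDM4E-SCNT, 48.3 to 78.3 FPKM in IVF and 125 to 198 FPKM in SCNT. Of the 14 tested markers of 18, 2 were higher and 5 lower in IVF than in SCNT, 3 higher and 1 lower in KDM4E-SCNT than in SCNT, and 4 higher and none lower in KDM4E-SCNT than in IVF. Of all features 58.5%, 32.6% and 6.52% were called in these comparisons. None of the 18 was at 0 in every library, and COL6A1 and PDGFRB were under 1 FPKM throughout. The sum was highest in KDM4E-SCNT replicate 2, where LGALS1, LUM and SPARC had 127, 84.6 and 53.3 FPKM. The part of fibroblast RNA in the levels of SNRPN, NDN and UBE3A was not tested.

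COPG2 encodes the gamma-2 subunit of COPI, the coat of vesicles that return proteins from the Golgi to the endoplasmic reticulum. It spans chromosome 4, 95079916 to 95209257 (UMD3.1), with 2 transcripts. COPG2 had 22.88 and 42.07 FPKM in KDM4E-SCNT, 35.16, 50.83 and 41.78 FPKM in IVF, and 4.20, 7.02 and 6.06 FPKM in SCNT. Every KDM4E-SCNT and IVF library was above every SCNT library, and KDM4E-SCNT replicate 2 lay within the IVF range.

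COPG2 was 2.70 ± 0.33 higher in IVF than in SCNT (limma adjusted p = 2.83e-05) and 2.27 ± 0.37 higher in KDM4E-SCNT than in SCNT (limma adjusted p = 0.00144). Between KDM4E-SCNT and IVF the difference was -0.43 ± 0.37, with a 95% interval of -1.23 to 0.37 (limma adjusted p = 0.569). The oocyte and embryo markers, given above, were higher in the same 2 groups, and their part in the COPG2 difference was not tested. Over the 8 libraries 993 features had a Pearson correlation of 0.95 or more with COPG2. The closest were TBC1D9B at 0.999 and PAIP1 at 0.997.

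COPG1 encodes the other form of the same COPI subunit. It had 2.63 and 5.37 FPKM in KDM4E-SCNT, 6.44, 3.78 and 4.61 FPKM in IVF, and 2.27, 4.31 and 0.74 FPKM in SCNT, and its groups overlapped. COPG1 differed by 0.91 ± 0.44 between IVF and SCNT and was not called (limma adjusted p = 0.0886). COPG2 made up 89.7% and 88.7% of the sum of both forms in KDM4E-SCNT, 84.5%, 93.1% and 90.1% in IVF, and 64.9%, 62.0% and 89.1% in SCNT. SCNT replicate 3 lay within the range of the other groups, and the shares of IVF and SCNT did not separate (exact permutation test, two-sided, p = 0.2).

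Of 14 tested genes of the COPI coat and its ARF1 cycle, 5 were higher and 2 lower in IVF than in SCNT, 50.0% called against 58.5% of all features. Those higher were COPB2 and COPZ1, which are coat subunits, the GTPases ARF1 and ARF4, which recruit coats, and KDELR1, a cargo receptor. COPB2 had 31.1 and 42.1 FPKM in KDM4E-SCNT, 15.9, 35.2 and 49.4 FPKM in IVF, and 9.47, 2.85 and 6.35 FPKM in SCNT. Those lower were ARFGAP3, which ends the ARF1 cycle, and TMED2, a cargo receptor, by 3.56 ± 0.35 and 3.24 ± 0.40 (limma adjusted p = 5.98e-06 and 2.84e-05). Between KDM4E-SCNT and SCNT 3 were higher (COPB2, ARF4 and KDELR1) and 2 lower (ARFGAP3 and TMED2), 35.7% called against 32.6% of all features. After median-ratio scaling the list split into 3 higher and 3 lower in IVF, and 1 higher and 3 lower in KDM4E-SCNT, each against SCNT. ARFGAP3 was the 1 gene of this list called between KDM4E-SCNT and IVF, where it was 1.93 ± 0.39 higher (limma adjusted p = 0.00945), or 1.87 without KDM4E-SCNT replicate 1 (limma adjusted p = 0.102).

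MEST, a paternally expressed growth-related gene in mice and humans, lies 230 bp from COPG2. It had 20.7 and 37.9 FPKM in KDM4E-SCNT, 101, 36.5 and 52.8 FPKM in IVF, and 6.39, 15.5 and 8.70 FPKM in SCNT. MEST was 2.48 ± 0.42 higher in IVF than in SCNT (limma adjusted p = 0.000311) and 1.46 ± 0.47 higher in KDM4E-SCNT than in SCNT (limma adjusted p = 0.0324). The second call was lost without KDM4E-SCNT replicate 2, where the difference was 1.04 (limma adjusted p = 0.260), and also without SCNT replicate 1 or 3 and under both other scalings. CEP41, a centrosomal gene 73121 bp from COPG2, was 1.75 ± 0.44 higher in IVF than in SCNT (limma adjusted p = 0.00447), and TSGA13, 266 bp away on the other side, did not pass the filter. The ratio of MEST to COPG2 was 0.906 and 0.901 in KDM4E-SCNT, 2.88, 0.718 and 1.26 in IVF, and 1.52, 2.20 and 1.44 in SCNT, with IVF and SCNT overlapping (exact permutation test, two-sided, p = 0.8).

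PLAGL1 encodes ZAC1, a zinc finger transcription factor that can arrest the cell cycle and is paternally expressed in humans and mice. The files place it at chromosome 9, 82419235 to 82420458 (UMD3.1), a span of 1224 bp with 9 transcripts. PLAGL1 had 6.63 and 6.81 FPKM in KDM4E-SCNT, 6.72, 12.60 and 6.85 FPKM in IVF, and 3.45, 3.32 and 1.77 FPKM in SCNT. All 5 libraries of KDM4E-SCNT and IVF were above all 3 of SCNT, and IVF replicate 2 was the highest.

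PLAGL1 was 1.32 ± 0.36 higher in IVF than in SCNT (limma adjusted p = 0.00688). It differed between KDM4E-SCNT and SCNT by 1.04 ± 0.40, with a 95% interval of 0.17 to 1.90, and was not called (limma adjusted p = 0.0622). It was called without IVF replicate 2 (limma adjusted p = 0.0449), which enters through the shared estimate of spread, and with a stricter filter (limma adjusted p = 0.0476). The difference was smaller after median-ratio scaling, at 0.66 (limma adjusted p = 0.219), and after quantile normalization, at 0.63 (limma adjusted p = 0.258). Between KDM4E-SCNT and IVF it differed by -0.28 ± 0.40 (limma adjusted p = 0.753). Across the 8 libraries NEXN was among the genes most like PLAGL1, with a Pearson correlation of 0.986, and 70 features with a symbol reached 0.95.

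PLAG1, the growth-promoting relative of PLAGL1, had 12.1 and 16.2 FPKM in KDM4E-SCNT, 20.7, 27.0 and 16.8 FPKM in IVF, and 5.35, 15.1 and 8.33 FPKM in SCNT. It was 1.17 ± 0.37 higher in IVF than in SCNT (limma adjusted p = 0.0170), a call that was lost without IVF replicate 2 or SCNT replicate 1 or 3 (limma adjusted p up to 0.0940 over all alternatives). PLAGL2 did not pass the filter. Of 12 tested genes among PLAG and SCAN zinc finger relatives and PLAGL1 partners, 5 were higher and 2 lower in IVF than in SCNT, and 3 were higher and 1 lower in KDM4E-SCNT than in SCNT. The shares called, 58.3% and 33.3%, are near the 58.5% and 32.6% of all features. ZSCAN26, a SCAN zinc finger gene, was higher in IVF by 2.64 ± 0.40 (limma adjusted p = 0.000135) and ZNF174, another, was lower by 2.23 ± 0.36 (limma adjusted p = 0.000202). SF3B5, a splicing factor gene 129067 bp from PLAGL1, went against it, with 875 and 423 FPKM in KDM4E-SCNT, 159, 115 and 152 FPKM in IVF, and 1643, 1855 and 1510 FPKM in SCNT. Its other neighbours, ZC2HC1B and LTV1, were not called in any comparison.

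IGF2R encodes the cation-independent mannose 6-phosphate receptor, which carries IGF2 and lysosomal enzymes to lysosomes, and is maternally expressed in cattle and mice. It spans chromosome 9, 97638172 to 97740003 (UMD3.1), with 2 transcripts. IGF2R had 0.53 and 0.44 FPKM in KDM4E-SCNT, 0.44, 0.23 and 0.34 FPKM in IVF, and 1.59, 7.49 and 1.36 FPKM in SCNT. SCNT replicate 2 was far above the other SCNT libraries, yet all 3 were above every library of the other groups.

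IGF2R was 1.48 ± 0.47 lower in IVF than in SCNT (limma adjusted p = 0.0154). It had passed the filter through the SCNT libraries only. Without SCNT replicate 2 the difference was -0.89 and not called (limma adjusted p = 0.0680). Between KDM4E-SCNT and SCNT the difference was -1.33 ± 0.52, with a 95% interval of -2.45 to -0.20, and was not called (limma adjusted p = 0.0659). It was called after median-ratio scaling, at -1.56 (limma adjusted p = 0.0367), and after quantile normalization, at -1.84 (limma adjusted p = 0.0178), whereas without SCNT replicate 2 it was -0.74 (limma adjusted p = 0.202). With a pseudocount of 0.1 the differences from SCNT were -2.63 in IVF and -2.19 in KDM4E-SCNT, with the same calls. Between KDM4E-SCNT and IVF it differed by 0.15 ± 0.52 (limma adjusted p = 0.914), which turned to -0.085 under quantile normalization. No feature reached a correlation of 0.95 with IGF2R, and the closest were SCAI at 0.948 and NCOA7 at 0.936.

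M6PR, the smaller cation-dependent mannose 6-phosphate receptor, was far above IGF2R. It had 15.7 and 20.8 FPKM in KDM4E-SCNT, 22.7, 7.86 and 16.7 FPKM in IVF, and 29.1, 30.5 and 31.1 FPKM in SCNT. M6PR was 1.01 ± 0.36 lower in IVF than in SCNT (limma adjusted p = 0.0288), a call lost without IVF replicate 2 (limma adjusted p = 0.110) or any 1 SCNT replicate. The ratio of M6PR to IGF2R was 29.6 and 47.3 in KDM4E-SCNT, 51.6, 34.2 and 49.0 in IVF, and 18.3, 4.07 and 22.9 in SCNT. IVF lay above SCNT in each library, and the exact permutation test (two-sided) gave p = 0.1, the smallest it can give with 3 against 3. The denominator, IGF2R, already separated these groups and was at most 0.44 FPKM in IVF. The ratio therefore adds no separate evidence of a difference.

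IGF2, the ligand that IGF2R clears, stayed between 0 and 0.20 FPKM and did not pass the filter. IGF1R, the receptor through which IGF2 signals, had 3.65 and 6.32 FPKM in KDM4E-SCNT, 5.66, 4.22 and 5.21 FPKM in IVF, and 0.55, 0.36 and 1.19 FPKM in SCNT. IGF1R was higher by 1.85 ± 0.35 in IVF than in SCNT (limma adjusted p = 0.000712) and by 1.81 ± 0.39 in KDM4E-SCNT than in SCNT (limma adjusted p = 0.00541, or 0.0672 without KDM4E-SCNT replicate 2). Of 17 tested genes around the IGF and mannose 6-phosphate receptors, 10 were higher and 4 lower in IVF than in SCNT, 82.4% called against 58.5% of all features. The higher genes included IGF2BP3, which encodes an IGF2 mRNA-binding protein, at 2.50 ± 0.28 (limma adjusted p = 1.36e-05), and CTSB, a lysosomal protease, at 2.39 ± 0.30 (limma adjusted p = 3.73e-05). IGF2BP1, a paralogue of IGF2BP3, was lower, with 5.90 and 0.60 FPKM in KDM4E-SCNT, 0.45, 0.25 and 2.59 FPKM in IVF, and 10.46, 15.0 and 14.04 FPKM in SCNT. Its difference was -2.91 ± 0.53 in IVF against SCNT (limma adjusted p = 0.000542) and -2.08 ± 0.60 in KDM4E-SCNT against SCNT (limma adjusted p = 0.0193), or -1.02 without KDM4E-SCNT replicate 2 (limma adjusted p = 0.272). In KDM4E-SCNT against SCNT 8 of the 17 were higher and 2 lower (7 and 4 after median-ratio scaling), 58.8% called against 32.6% of all features. None was called between KDM4E-SCNT and IVF by limma, where 1 was lower at an unadjusted p under 0.05. PNLDC1, a gene 113642 bp from IGF2R, went against it and was 3.44 ± 0.35 higher in IVF than in SCNT (limma adjusted p = 7.23e-06).

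PEG3, a paternally expressed zinc finger gene of placental and maternal behaviour phenotypes in mice, can be followed only through a feature without a symbol that the files describe as its protein (ENSBTAG00000023338.4, chromosome 18, 64270787 to 64282112, UMD3.1). That feature had 0.26 and 0.25 FPKM in KDM4E-SCNT, 0.24, 0.29 and 0.19 FPKM in IVF, and 0.03, 0.03 and 0.08 FPKM in SCNT. It lies outside the rule and under the filter, so it was not tested. The KDM4E-SCNT and IVF libraries overlapped and were above those of SCNT, at levels where the number of reads is not known. ZIM2, an imprinted zinc finger gene next to PEG3 in humans, was on chromosome 18 as well and had 5.72 and 7.38 FPKM in KDM4E-SCNT, 10.3, 11.0 and 10.2 FPKM in IVF, and 1.18, 1.19 and 0.43 FPKM in SCNT. ZIM2 was 2.60 ± 0.33 higher in IVF (limma adjusted p = 3.61e-05) and 1.98 ± 0.37 higher in KDM4E-SCNT (limma adjusted p = 0.00242) than in SCNT.

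**Figure D2:**
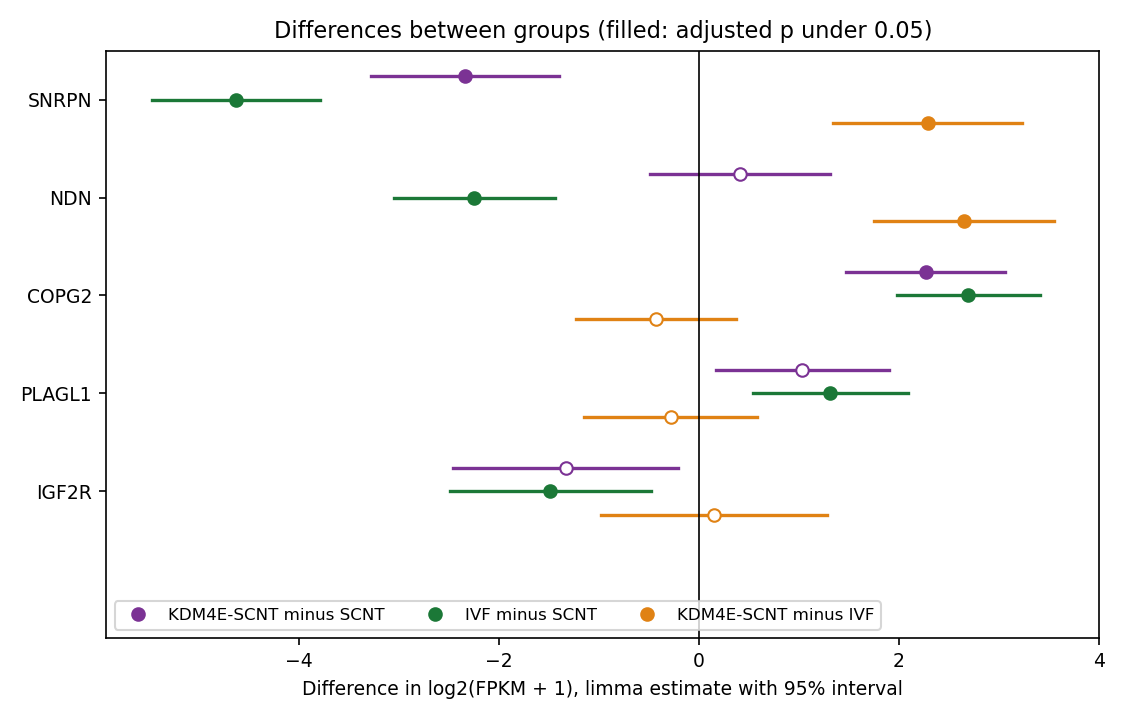
Difference in log2(FPKM + 1) of the 5 imprinted genes in each comparison; points are limma estimates, lines 95% intervals, and filled points passed an adjusted p of 0.05. SNRPN is lower in both comparisons with SCNT (-2.34 and -4.63), and COPG2 is higher in both (2.27 and 2.70), while NDN in KDM4E-SCNT is near SCNT (0.41) and 2.66 above IVF.

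The order of levels within a group changed between groups. In KDM4E-SCNT COPG2 and SNRPN overlapped at the top, NDN and PLAGL1 overlapped below them, and IGF2R was lowest. In IVF COPG2 was highest, PLAGL1 came next, SNRPN followed, and NDN and IGF2R overlapped at the bottom. In SCNT SNRPN was far above the others, COPG2 and NDN overlapped, PLAGL1 was below both, and IGF2R overlapped all 3 of these through SCNT replicate 2. The libraries did not overlap for 5 of the 5 genes between IVF and SCNT, where 64.4% of all features tested did not overlap. Among them, IGF2R and NDN had passed the filter only through groups where they were high. The same count was 4 of 5 between KDM4E-SCNT and SCNT (59.5% of all features) and 2 of 5 between KDM4E-SCNT and IVF (33.9% of all features).

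A wider list of 54 imprinted gene names matched 31 features under 30 names, of which 20 passed the filter. In IVF against SCNT 8 of the 20 were higher and 4 lower, which is 60.0% called, close to the 58.5% of all features. Those higher were ZIM2, MEST, CD81, BLCAP, HERC3, RB1, PPP1R9A and the second of the GNAS features. Those lower were NAP1L4, UBE3A, PHLDA2 and SFMBT2. After quantile normalization 5 were higher and 5 lower, and PPP1R9A and the second GNAS feature lost their calls when any of several single libraries was left out.

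NAP1L4, a histone chaperone gene of the imprinted domain around IGF2 and CDKN1C, had 61.1 and 34.3 FPKM in KDM4E-SCNT, 16.3, 26.4 and 20.5 FPKM in IVF, and 123, 97.0 and 180 FPKM in SCNT. PHLDA2, a maternally expressed brake on placental growth in mice, had 5.88 and 13.3 FPKM in KDM4E-SCNT, 1.84, 11.4 and 3.40 FPKM in IVF, and 31.8, 17.3 and 21.8 FPKM in SCNT. In both genes the SCNT libraries were above all others. CD81, a tetraspanin gene of the same domain, ran against them, with 3.44 and 3.67 FPKM in KDM4E-SCNT, 13.8, 7.04 and 5.02 FPKM in IVF, and 2.00, 0.89 and 0.22 FPKM in SCNT. IGF2, CDKN1C, ASCL2 and OSBPL5, also on chromosome 29, were under 1 FPKM in every library.

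Between KDM4E-SCNT and SCNT 5 of the 20 were higher and 2 lower, 35.0% called against 32.6% of all features. ZIM2, MEST, HERC3, RB1 and BLCAP were higher, and NAP1L4 and SFMBT2 lower. The split depended on scaling, with 1 higher and 4 lower after median-ratio scaling and 1 and 2 after quantile normalization. BLCAP, for one, had 20.4 and 16.6 FPKM in KDM4E-SCNT, 36.6, 27.0 and 47.2 FPKM in IVF, and 7.09, 8.57 and 8.03 FPKM in SCNT. Of these genes ZIM2 kept its call under every alternative run, and NAP1L4 and HERC3 lost theirs without KDM4E-SCNT replicate 2 or SCNT replicate 3. HERC3 also lost its call under both other scalings, and held it in 11 of 15 alternatives against 13 for NAP1L4. The other 4 lost theirs without at least 3 single libraries each. With the 5 genes described first, 9 imprinted genes were called here, and 3 without KDM4E-SCNT replicate 2 or without SCNT replicate 3. Between KDM4E-SCNT and IVF UBE3A was the 1 gene called of the 20.

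**Figure D3:**
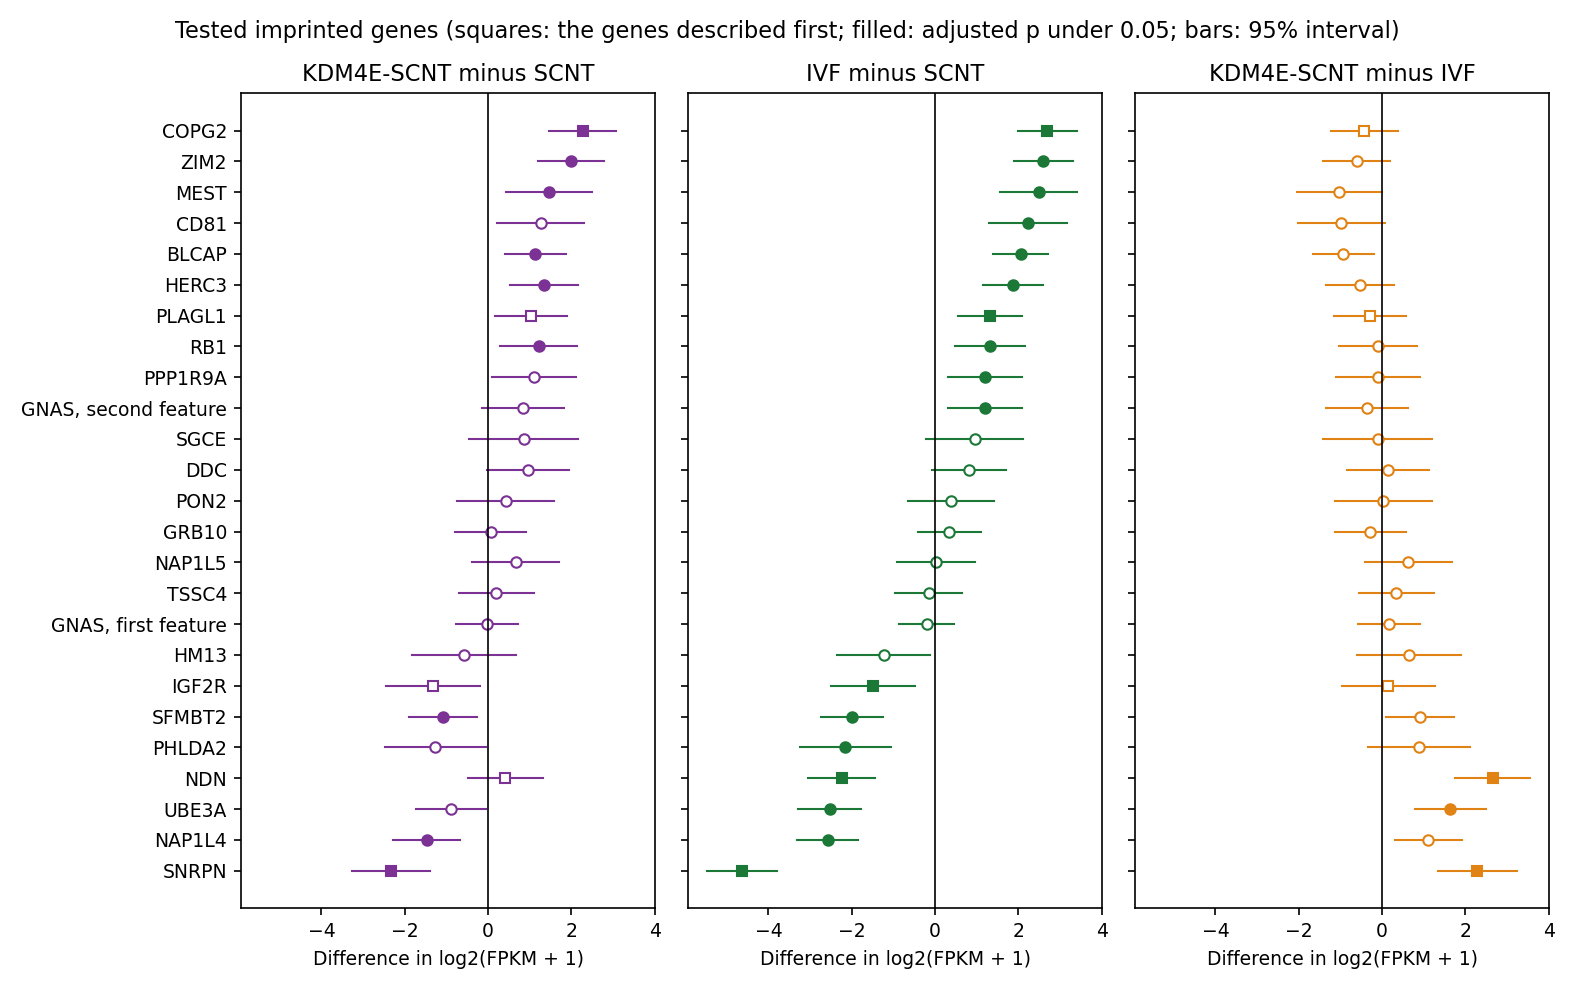
Difference in log2(FPKM + 1) of all 25 tested imprinted genes in each comparison, in the order of their difference between IVF and SCNT; squares are SNRPN, NDN, COPG2, PLAGL1 and IGF2R, circles other imprinted genes, lines 95% intervals, and filled symbols an adjusted p under 0.05. In the comparison of KDM4E-SCNT with IVF the filled symbols are NDN (2.66), SNRPN (2.29) and UBE3A (1.64).

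Factors that keep or protect imprints differed between the groups in both directions. Of 23 tested, 12 were higher and 8 lower in IVF than in SCNT, and 9 were higher and 4 lower in KDM4E-SCNT than in SCNT (7 and 6 after median-ratio scaling). The shares called were 87.0% and 56.5%, against 58.5% and 32.6% of all features. ZFP57, a zinc finger protein that binds methylated imprints, had 4.52 and 1.24 FPKM in KDM4E-SCNT, 0.22 FPKM, a listed 0 and 0.24 FPKM in IVF, and 1.95, 1.84 and 6.91 FPKM in SCNT. It was 1.82 ± 0.47 lower in IVF than in SCNT (limma adjusted p = 0.00541), and between KDM4E-SCNT and SCNT the groups overlapped (limma adjusted p = 0.793). TRIM28, the corepressor that ZFP57 recruits, had 6.34 and 4.76 FPKM in KDM4E-SCNT, 2.92, 3.94 and 5.42 FPKM in IVF, and 24.8, 14.3 and 13.8 FPKM in SCNT. TRIM28 was lower than in SCNT by 1.47 ± 0.39 in KDM4E-SCNT (limma adjusted p = 0.0136, or 0.109 without replicate 2 of that group) and by 1.85 ± 0.35 in IVF (limma adjusted p = 0.000669).

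The oocyte factors of this list were higher in IVF than in SCNT, and so were some of its other factors. Group means in IVF and SCNT were 12.8 and 3.90 FPKM for SETDB1, and 5.92 and 1.01 FPKM for DNMT3B. HELLS and CBX5 were lower in IVF, with 23.7 against 60.4 FPKM and 85.4 against 268 FPKM. Of the 23 tested factors, 12 were called higher and 8 lower in IVF. DPPA3, which shields the maternal genome from demethylation in mice, had 3824 and 4497 FPKM in KDM4E-SCNT, 4577, 5698 and 5176 FPKM in IVF, and 1134, 1735 and 1667 FPKM in SCNT. OOEP, of the subcortical maternal complex, and NLRP7, tied to imprinting disorders in humans, were higher in IVF than in SCNT by 2.77 ± 0.31 and 3.13 ± 0.41 (limma adjusted p = 1.64e-05 and 4.88e-05). DNMT1, the maintenance DNA methyltransferase, was 1.48 ± 0.33 higher in IVF than in SCNT (limma adjusted p = 0.00211). None of the 23 was called between KDM4E-SCNT and IVF by limma, where 4 were higher and 2 lower at an unadjusted p under 0.05.

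**Figure D4:**
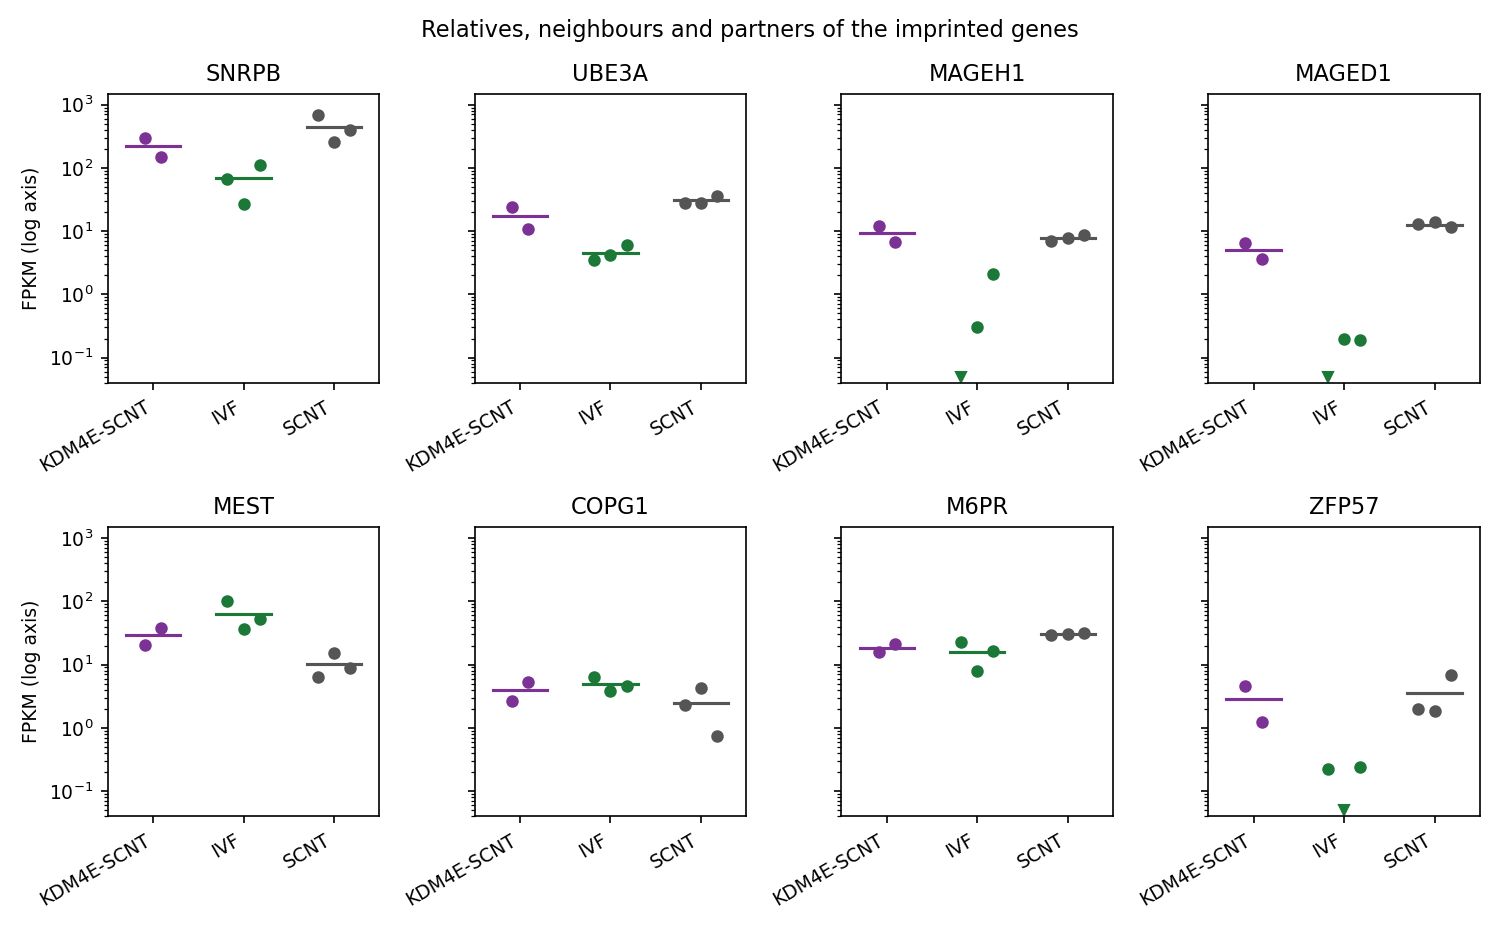
FPKM on a log axis of SNRPB, UBE3A, MAGEH1, MAGED1, MEST, COPG1, M6PR and ZFP57 in every library, by group; points are libraries, triangles at the bottom edge libraries listed at 0, and bars group means where no library was at 0. MAGEH1 and MAGED1 are at or below 2.09 FPKM in every IVF library and at or above 3.68 FPKM in every cloned library.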

How the data were processed

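Per the labels' protocols, cDNA from each pool was tailed with poly(A), amplified and sheared before library preparation. The authors deposited 1 table per library of FPKM to 2 decimals; the submitters' processing notes name RSEM 1.2.12, StringTie 1.0.4, HISAT 0.1.6 and Bowtie2 2.2.5, with no roles, and build UMD3.1. Read depth is unknown, so no counting intervals are given, and strand use in counting is not given in the sources used here.

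Differences were fitted with limma 3.58.1 (R 4.3.3; trend, robust) on log2(FPKM + 1) in 1 model of group means over 8 libraries, with Benjamini-Hochberg adjustment over 14839 features, and the fit was checked on simulated data. Alternatives changed the pseudocount, filter, scaling, libraries or replicate block. Named were the genes of the rule, listed imprinted genes, up to 4 genes of each other list by p in IVF against SCNT and up to 2 in KDM4E-SCNT against SCNT, the 2 most correlated genes, and neighbours within 200 kb. SNRPB2, SNRPA, COPG1, COPZ1, ARF1, KDELR1, M6PR, IGF1R, IGF2BP1, PLAG1, PLAGL2, ZFP57, TRIM28, DNMT1 and other listed genes were named after their values were seen. Genes and lists were chosen with earlier results of these data known. Some genes that these rules name are not reported here.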

Additional observations from a re-analysis of the deposited data

How the results depend on the processing

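The 15 differences of the 5 genes were recomputed 222 times under up to 15 alternatives, and 213 kept direction and call. The median of all features, 0.32 in KDM4E-SCNT minus SCNT and 0.39 in IVF minus SCNT, became 0.024 and 0.11 after median-ratio scaling. Called features then split into 2113 higher and 2741 lower in KDM4E-SCNT (3208 and 1636 as deposited), and into 4183 higher and 4307 lower in IVF (5182 and 3498). IGF2R in KDM4E-SCNT minus SCNT became called at -1.56 (median-ratio scaling) and -1.84 (quantile normalization), and PLAGL1 with the strict filter of 5 FPKM in 3 libraries at 1.04, a filter IGF2R does not pass. IGF2R in KDM4E-SCNT minus IVF turned to -0.085 (quantile normalization) and, with the replicate block, to -0.0093; the cause was not tested. Same-numbered libraries correlated at 0.0065 to 0.123 after removal of group means, and differently numbered ones at -0.134 to 0.134. With so few libraries per group, these values cannot tell if same-numbered pools share a day. The replicate block left 6 against 9 imprinted genes called in KDM4E-SCNT minus SCNT.

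With 1 library left out in turn, IGF2R in IVF minus SCNT ranged from -1.81 to -0.89, NDN in KDM4E-SCNT minus SCNT from -0.033 to 0.86, PLAGL1 in KDM4E-SCNT minus SCNT from 0.82 to 1.16, and SNRPN in KDM4E-SCNT minus IVF from 1.56 to 3.02. Features called ranged from 1553 (without KDM4E-SCNT replicate 2) to 5242 in KDM4E-SCNT minus SCNT (4844 with all), and from 298 (without KDM4E-SCNT replicate 1) to 1301 in KDM4E-SCNT minus IVF (967 with all, 541 when only those groups were fitted). Imprinted genes called ranged from 3 to 11 and from 1 to 3 in these comparisons. Calls of other named genes were recomputed after seeing the data: of 94, 57 held throughout, none reversed, and the rest lost their call under at least 1 alternative. With 2 KDM4E-SCNT libraries and unknown depth, levels under about 1 FPKM (IGF2R, NDN in IVF) carry the least information.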
